A study of Homo sapiens with 5 samples.

Results

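Small nucleolar RNA (snoRNA) host genes were examined in the poly(A+) RNA of H9 cells, an established line of human embryonic stem cells. They were taken by symbol, as every gene of the deposited table whose name starts with SNHG, together with GAS5, EPB41L4A-AS1, ZFAS1 and DANCR. This gave 27 genes of 33857 listed. RNA was sequenced from 2 mock control and 3 CFIm25-m samples. By the study's account, the mock controls are clones that received the CRISPR/Cas9 vector without a guide. The CFIm25-m samples are clones edited at NUDT21 with a different guide RNA each. The labels name the first group only as control, and the study's figure of these data names it mock. The data columns of this group are named H9, so its description as vector-transfected clones rests on the study's text. Cells were kept in mTeSR medium, and by that text both groups went through the CRISPR/Cas9 procedure. The study selected transfected cultures on puromycin and picked single-cell clones. No later treatment is described for these samples. The labels call the edited cells CFIm25 KO, while the study describes them as clones that keep reduced amounts of a CFIm25 protein shortened at its N-terminus, so each sample is 1 clone and not a full loss of the gene. The recovered totals were between 18754108 and 23372391 reads per sample.

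snoRNAs guide chemical modification of ribosomal and spliceosomal RNA, and most of them are cut out of introns of longer transcripts. In the SNHG genes the spliced exons seldom code for protein. The host RNA is capped, spliced and polyadenylated like a messenger RNA, and many host RNAs begin with a terminal oligopyrimidine (TOP) tract, the cap-proximal run of C and T bases found on mRNAs of the translation machinery. Several are broken down by nonsense-mediated decay once ribosomes reach an early stop codon. Box C/D snoRNAs guide methylation of ribose, box H/ACA snoRNAs guide the conversion of uridine to pseudouridine, and small Cajal body RNAs (scaRNAs) do the same for spliceosomal RNA. CFIm25 itself is a subunit of cleavage factor I, which binds upstream of poly(A) sites during 3' end formation.

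The edited gene NUDT21 had normalized counts of 6503 and 6398 in mock control and 4035, 3281 and 3400.2 in CFIm25-m replicates 1, 2 and 3. All 12 stem cell markers examined were present in each sample, with a summed normalized count between 244594 and 268904. The 12 listed germ layer markers summed to between 71.5 and 87.2. Of 8 listed fibroblast markers, COL1A1, THY1, COL1A2 and PDGFRB were expressed. POSTN reached at most 13.5 and COL3A1 at most 9.65, while LUM and DCN did not exceed 2.31 in any sample. The 8 fibroblast markers summed to 16134 and 16521 in mock control and to between 13355 and 16599.5 in CFIm25-m. CFIm25-m replicate 3 stood apart from the other samples: it was the highest or lowest of the 5 samples in 60.4% of the 19232 tested genes, against between 33.0% and 37.7% for each of the others. Its values are therefore given one by one, and the main counts also without it.

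To show how the host transcripts begin, the 30 bases around the RefSeq start (10 before it, 20 from it on, GRCh38.p14) are given for members that lay farthest from the mock controls in CFIm25-m replicate 3. These were the 4 lowest and the 4 highest of those with a mean normalized count of at least 100 and a RefSeq start within 100 bases of the deposited one. Capitals mark a C followed by at least 4 C or T bases that begins at the start or, where none begins there, at most 5 bases from it. Only the transcribed strand was searched. The 4 lowest were:
SNHG5 (chr6:85678714-85678743, minus strand): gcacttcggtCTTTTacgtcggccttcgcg
SNHG19 (chr16:2155339-2155368, minus strand): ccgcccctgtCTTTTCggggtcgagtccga
SNHG10 (chr14:95534853-95534882, minus strand): cttatgccggagcctcatcctactgcctta
SNHG16 (chr17:76557754-76557783, plus strand): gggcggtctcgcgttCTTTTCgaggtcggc
and the 4 highest were:
SNHG26 (chr7:22854230-22854259, plus strand): taaacttgatctccgcagtgccctcccttt
SNHG11 (chr20:38446644-38446673, plus strand): gctctaggctgcagccgcgcccccagccgt
SNHG4 (chr5:139274091-139274120, plus strand): ctcccggctgCCCTTTCCCCTCCggcctct
SNHG17 (chr20:38435309-38435338, minus strand): gtgtggcctcagtCCTTCgccgtccctcgc
SNHG5, SNHG19 and SNHG4 carried the run exactly at the RefSeq start, SNHG16 and SNHG17 near it, and SNHG10, SNHG26 and SNHG11 carried none within 5 bases of it. The run was thus found in members of both directions. RefSeq windows were matched for 23 of the 27 genes. SNHG6, SNHG9, SNHG15 and SNHG25 had no entry. The run began exactly at the start in 6 of the 23 windows (26.1%), in 43 of 80 windows of cytosolic ribosomal protein genes (53.8%) and in 4.07% of all 35116 RefSeq promoters. With up to 5 bases allowed on either side, the shares were 47.8%, 68.8% and 21.1%. Such a run is a description of the annotated sequence and not of a measured start. The RefSeq start lay within 100 bases of the deposited one in 17 of the 23 windows. GAS5, counted without the run, was not among these, so its window may miss the start of the deposited transcript.

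The 27 genes lay on 14 chromosomes, and the deposited table annotates 11 as processed transcripts, 8 as lincRNAs, 6 as antisense, 1 as sense-overlapping and 1, SNHG28, as protein-coding. Their annotated lengths ran from 278 to 43324 bases, with a median of 2813. Of the 27 genes, 25 passed the filter for testing, under which 2 or more samples must reach a normalized count of 10. SNHG25 (between 5.76 and 10.6) and SNHG28 (between 0.00 and 8.69) did not pass. Among the 25, 22 averaged at least 100 normalized counts across the 5 samples, and 10 averaged at least 1000.

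Per length, GAS5 was the most abundant host, at 1753 normalized counts per kilobase of annotated length (mean of 5 samples), and it exceeded the next gene in every sample. SNHG5 (1405), SNHG6 (1305), SNHG19 (1264), SNHG1 (1087) and SNHG8 (1059) followed on the same per-kilobase scale, and neighbours in this order overlapped between samples. DANCR, at 853 per kilobase, lay above SNHG14, at 685, in every sample. SNHG22 (3.26) and SNHG28 (0.54) were the least abundant per kilobase. SNHG14 took between 47.6% and 52.0% of the summed normalized count of all 27 genes, a share that rests on its annotated length of 43324 bases.

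The comparison of CFIm25-m with mock control asks whether the levels of these host RNAs differ in the edited clones. None of the 25 tested members passed an adjusted p of 0.05 in limma-trend, in either direction, while 1.88% of the 19232 tested genes did, 0.936% lower and 0.941% higher. At an unadjusted p below 0.05, 1 member (SNHG26, higher) was found, beside 15.1% of all tested genes, 7.15% lower and 7.99% higher. On reads recovered from the normalized counts, edgeR's quasi-likelihood test also called 0 members at the adjusted threshold (1.74% of all genes) and 1 at the unadjusted one (14.9%), again SNHG26. The DESeq2 Wald test called 0 members at either threshold (3.17% and 11.6% of all genes). The median log2 fold change of the 25 members was 0.04, with 15 above 0 and 10 below, and that of all tested genes was -0.01.

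A p-value that misses the threshold does not show that the levels were equal, so the intervals are given. The 95% interval of the log2 fold change lay within 0.5 of 0 for 15 members, or 60% of them, and for 42.7% of all tested genes. It lay within 1 of 0, a 2-fold difference, for 22 members, against 72.9% of all tested genes. The other members, SNHG9, SNHG21 and SNHG22, had low counts. For the 22 members with a mean of at least 100, the log2 fold changes ran from -0.25 for SNHG19 to 0.51 for SNHG26. A log2 fold change more than 0.25 from 0 was found for 4 members, beside 36.9% of all tested genes, and one more than 1 from 0 for 1 member, SNHG22, beside 4.1%. In these shares the background of all tested genes was not matched to the members for abundance. Most members averaged at least 100, and genes with few reads tend to have wider intervals. No source used here says whether reads were counted by strand, and fewer cells with a transcript cannot be told apart from less RNA per cell in bulk samples.

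**Figure D1:**
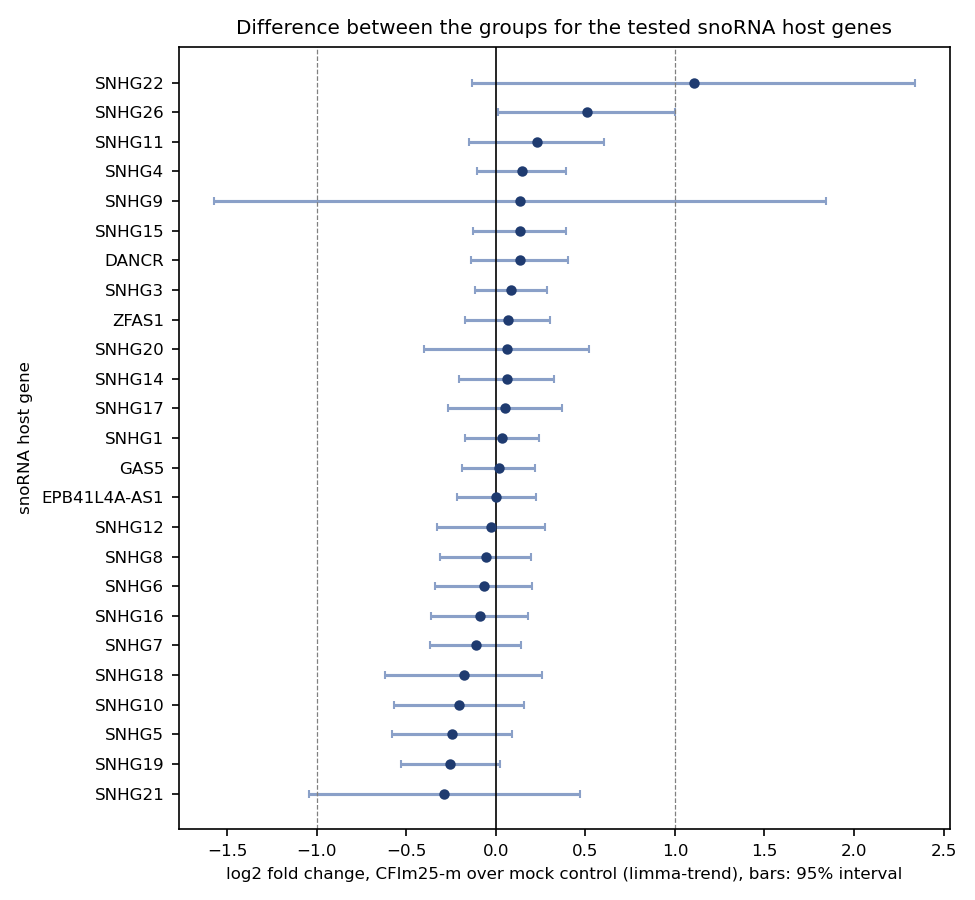
log2 fold change of CFIm25-m over mock control (limma-trend on log2(normalized count + 1)) for the 25 tested snoRNA host genes, with 95% intervals and dashed lines at a 2-fold difference. All intervals but that of SNHG26 (0.01 to 1.00) include 0, and the wide ones belong to SNHG9, SNHG21 and SNHG22.

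The hosts of box C/D snoRNAs included the most abundant members. The values given per sample are normalized counts throughout, with mock control replicates 1 and 2 first. GAS5, a non-coding RNA named for its rise in growth-arrested cells and known as a target of nonsense-mediated decay, had normalized counts of 6389 and 6256 in mock control and 6464, 6057 and 6663 in CFIm25-m replicates 1, 2 and 3. The groups overlapped, and the difference was 0.02 ± 0.09 on the log2 scale (estimate ± standard error, limma-trend, adjusted p = 0.956), with a 95% interval of -0.19 to 0.22. SNHG1 had 4009 and 4028 in mock control and 4072, 3888 and 4418 in CFIm25-m. Its replicate 3 was the highest sample and replicate 2 the lowest, and its log2 fold change was 0.04 (interval -0.17 to 0.24). Both genes thus had narrow intervals around 0.

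SNHG5, the host of the SNORD50 genes, had 4292 and 4342 in mock control and 4201, 4009 and 2866 in CFIm25-m. Every CFIm25-m sample lay below both mock controls, but replicates 1 and 2 lay close to them and replicate 3 accounted for most of the difference, -0.25 ± 0.15 on the log2 scale (estimate ± standard error, limma-trend, adjusted p = 0.474). Without replicate 3 the log2 fold change of SNHG5 was -0.07 (interval -0.20 to 0.05). SNHG19, a short transcript of 342 bases that hosts SNORD60, had 484 and 472 in mock control and 438, 402 and 365 in CFIm25-m. It was the other member whose groups did not overlap in the lower direction, with -0.25 ± 0.12 on the log2 scale (estimate ± standard error, limma-trend, adjusted p = 0.369), and here each clone was below the mock controls by more than these differed from each other. Among all tested genes, 19.8% were lower in every clone than in both mock controls.

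SNHG6, which hosts SNORD87, had 1686 and 1649 in mock control and 1778, 1671 and 1353 in CFIm25-m. SNHG16, which hosts the SNORD1 genes, had 1739 and 1779.6 in mock control and 1828, 1761 and 1402 in CFIm25-m. In both genes replicates 1 and 2 lay within or just above the mock controls and replicate 3 lay below all other samples. The log2 fold changes were -0.07 (adjusted p = 0.826, limma-trend) and -0.09 (adjusted p = 0.764), and they were 0.05 and 0.03, on the other side of 0, without replicate 3. ZFAS1, transcribed from the opposite strand of the ZNFX1 start and host of the SNORD12 genes, had 1271 and 1121 in mock control and 1296, 1149.7 and 1311 in CFIm25-m. Its groups overlapped and the mock controls differed from each other about as much as the clones did.

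SNHG26, the host of SNORD93, had 80.7 and 79.1 in mock control and 118, 90.9 and 138 in CFIm25-m. All 3 clones were above both mock controls, replicates 1 and 3 more than replicate 2. The difference was 0.51 ± 0.22 on the log2 scale (estimate ± standard error, limma-trend, adjusted p = 0.318), with an interval of 0.01 to 1.00, and it did not pass the threshold over all tested genes. SNHG18, host of SNORD123, had 179 and 129 in mock control and 121, 149 and 134 in CFIm25-m. Its mock controls differed more from each other than its clones did.

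SNHG14 is the long transcript of the imprinted SNRPN region, made from the paternal chromosome and known for the SNORD116 and SNORD115 clusters and for running antisense to UBE3A. Its normalized counts were 29102 and 28726 in mock control and 29852, 27845 and 32962 in CFIm25-m. Replicate 3 was the highest sample and replicate 2 the lowest, and the log2 fold change was 0.06 (interval -0.20 to 0.32, adjusted p = 0.846, limma-trend). UBE3A, which overlaps it on the opposite strand, had 3186 and 3145 in mock control and 2859, 2717 and 2726 in CFIm25-m, lower in every clone. The UBE3A difference, -0.19 on the log2 scale, missed the threshold (limma-trend, adjusted p = 0.325). PWAR5, listed inside SNHG14 on the same strand, had 3976 and 3879 in mock control and 3868, 3463 and 3611 in CFIm25-m, also lower in every clone (log2 fold change -0.11, adjusted p = 0.606). PWAR6, more abundant and also on the same strand, had 5846 and 5683 in mock control and 5515, 4962 and 8183 in CFIm25-m, with replicates 1 and 2 below the mock controls and replicate 3 above them (log2 fold change 0.08, adjusted p = 0.876). SNRPN, which overlaps SNHG14 on the same strand by a short stretch, had 875 and 742 in mock control and 807, 797 and 1079 in CFIm25-m, with overlapping groups (log2 fold change 0.14, adjusted p = 0.698). Reads from these overlapping annotations cannot be assigned to 1 of them with certainty.

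Hosts of box H/ACA snoRNAs were examined next. SNHG3, which holds SNORA73, the U17 snoRNA that acts in ribosomal RNA cleavage, had 1706 and 1650.2 in mock control and 1714, 1785 and 1841 in CFIm25-m. Each clone was above both mock controls by a small amount, and the interval of its log2 fold change was -0.11 to 0.28. SNHG4, the host of SNORA74, had 2288 and 2139 in mock control and 2213, 2375 and 2778 in CFIm25-m, with replicate 3 highest. DANCR, a transcript known for keeping progenitor cells undifferentiated and the host of SNORA26, had 1795 and 1878 in mock control and 1996, 2328 and 1752 in CFIm25-m. Replicates 1 and 2 of DANCR lay above both mock controls and replicate 3 below them, which gave 0.13 ± 0.12 on the log2 scale (estimate ± standard error, limma-trend, adjusted p = 0.639). Without replicate 3 its log2 fold change was 0.23 (adjusted p = 0.148, limma-trend), the only member with an unadjusted p below 0.05 in that comparison, in which 20.4% of all tested genes had one.

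SNHG15 had 615 and 634 in mock control and 637, 655 and 770.5 in CFIm25-m. SNHG11, the host of SNORA60, had 166 and 169.8 in mock control and 185, 177 and 232 in CFIm25-m. In both, every clone was above both mock controls, replicate 3 by the most, and neither passed the threshold (log2 fold changes 0.13, adjusted p = 0.621, and 0.23, adjusted p = 0.555, limma-trend). SNHG8 had 1035 and 964 in mock control and 1059, 967 and 863 in CFIm25-m. EPB41L4A-AS1, the host of SNORA13, had 946 and 938 in mock control and 940.1, 1000.2 and 894 in CFIm25-m. Both genes had overlapping groups and log2 fold changes of -0.06 and 0.00, with intervals of -0.31 to 0.19 and -0.22 to 0.22.

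SNHG7, the host of SNORA17, had 882 and 926 in mock control and 835, 754 and 926 in CFIm25-m, with replicates 1 and 2 below the mock controls and replicate 3 level with the higher of them. SNHG12, which holds both box C/D and box H/ACA snoRNAs, had 618 and 636 in mock control and 556, 569.9 and 733 in CFIm25-m. SNHG17, the host of the SNORA71 genes, had 452 and 454 in mock control and 422, 438 and 559.8 in CFIm25-m. In SNHG12 and SNHG17 replicates 1 and 2 were below both mock controls and replicate 3 above both, so that their log2 fold changes of -0.03 and 0.05 are means of clones on opposite sides of the mock controls. The difference between clones was not tested, since each clone is 1 sample.

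SNHG10 and SNHG20 are hosts of scaRNAs. SNHG10, which holds SCARNA13, had 229 and 277 in mock control and 251, 208 and 199 in CFIm25-m, and its log2 fold change was -0.21 (adjusted p = 0.579, limma-trend). SNHG20, the host of SCARNA16, had 163 and 145 in mock control and 148, 134 and 206 in CFIm25-m. Replicate 3 was the lowest sample for SNHG10 and the highest for SNHG20. Of the members with few reads, SNHG21 had 20.7 and 26.1 in mock control and 16, 19.8 and 21.2 in CFIm25-m, with overlapping groups. SNHG22 had 2.31 and 7.72 in mock control and 8.02, 10.8 and 13.5 in CFIm25-m. Only CFIm25-m replicates 2 and 3 carried it past the filter of 10, so a higher value in CFIm25-m is partly set by the filter, and its log2 fold change of 1.10 is given as a description. It came with an interval of -0.13 to 2.34 that reaches from a small decrease to more than a 4-fold increase, and its mock controls alone differed by 1.40 on the log2 scale. SNHG9 had 10.4 and 1.93 in mock control and 2.00, 6.30 and 10.6 in CFIm25-m, also too few reads for a direction.

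Over all tested members, the groups did not overlap in 7 (28%), 2 lower (SNHG5 and SNHG19) and 5 higher (SNHG3, SNHG11, SNHG15, SNHG22 and SNHG26). SNHG22 had passed the filter only through CFIm25-m replicates 2 and 3, so its place among the higher members is partly set by the filter. Among all tested genes the groups did not overlap in 36.8%, 19.8% lower and 17.0% higher, so the members' shares of 8% and 20% lie near or below this background.

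The clones were then compared one at a time with the mean of the mock controls. The median log2 difference of the 25 members was 0.02 in replicate 1, -0.05 in replicate 2 and 0.13 in replicate 3, while all tested genes had medians of -0.0026, -0.0049 and -0.03. More than 0.25 from the mock controls lay 5 members in replicate 1, 4 in replicate 2 and 13 in replicate 3, of which 8 were above and 5 below. The same size was passed by 39.0%, 38.7% and 55.4% of all tested genes, which were not matched to the members for abundance. Replicate 3 was the highest of the 5 samples in 14 members (56%) and the lowest in 8 (32%), beside 27.9% and 32.5% of all tested genes.

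Among the 22 members with a mean of at least 100, SNHG5 (-0.59), SNHG19 (-0.39), SNHG10 (-0.35), SNHG16 (-0.33), SNHG6 (-0.30) and SNHG8 (-0.21) had the lowest log2 differences in replicate 3. SNHG26 (0.78), SNHG11 (0.46), SNHG20 (0.42), SNHG4 (0.33), SNHG17 (0.31) and SNHG15 (0.30) had the highest. In replicates 1 and 2 the lower genes SNHG6, SNHG8 and SNHG16 lay between -0.05 and 0.09. The 11 tested members with the pyrimidine run at or near the RefSeq start had a median of -0.07 in replicate 3 (6 below 0, 5 above), and the 11 without it had a median of 0.14 (3 below, 8 above). For a run exactly at the start the medians were -0.04 in 6 members (3 below, 3 above) and 0.10 in the 16 others. With only the windows whose RefSeq start lay within 100 bases of the deposited start, a restriction chosen after the values were seen, the medians were -0.20 in 9 members with the run at or near the start (6 below, 3 above) and 0.14 in 8 without it (3 below, 5 above). Under the same restriction, a run exactly at the start gave -0.30 in 4 members (3 below, 1 above) and 0.03 in 13 without it (6 below, 7 above). The unrestricted groups include windows more than 100 bases from the deposited start, such as SNHG12 with the run and GAS5 and SNHG14 without it. Ribosomal protein genes, most of which carry the run, had a median of -0.34 in this replicate, and the part of the run in these values was not tested.

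Without replicate 3, 23 members were tested and 0 were called in limma-trend, while 5.55% of all tested genes were called. The log2 fold changes of the 22 members with a mean of at least 100 then ran from -0.19 to 0.37, and the 95% interval lay within 0.5 of 0 for 20 members. The smallest adjusted p among the members was 0.148.

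The summed normalized count of all 27 genes was 60167 and 59448 in mock control and 61165, 58470.1 and 63420.0 in CFIm25-m. The means were 59807 ± 508 (SD, n = 2) and 61018 ± 2478 (SD, n = 3), a ratio of 1.02, smaller than the spread between clones. Without SNHG14 the sums were 30894 ± 242 (SD, n = 2) and 30799 ± 453 (SD, n = 3), a ratio of 0.997. This direction depended on the scaling: with total-read scaling the sums without SNHG14 were 30022 ± 299 (SD, n = 2) and 31395 ± 679.7 (SD, n = 3), a ratio of 1.05, and every clone lay above both mock controls. In CFIm25-m replicate 3 the sum without SNHG14 was 30458, the lowest of the 5 samples, with the deposited size factors and 31880.3, the highest, with total-read scaling. These genes took between 0.274% and 0.316% of all reads of a sample.

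The snoRNAs themselves carry no poly(A) tail, so oligo(dT)-selected RNA does not measure them well, and reads at a snoRNA row can come from unspliced host RNA. The table lists 275 snoRNA and scaRNA rows, of which 42 lie inside 14 of the members on the same strand, 24 of them in SNHG14. Their mean normalized counts had a median of 7.34 and a highest value of 73.2. None of the 16 tested rows was called in limma-trend, beside 1.88% of all tested genes. SNORA73B, inside SNHG3, had 21.9 and 27 in mock control and 34.1, 37.8 and 56.8 in CFIm25-m (log2 fold change 0.76, adjusted p = 0.3), higher in every clone. SNORD116-1, the most abundant, had 80.7 and 69.5 in mock control and 86.2, 61.2 and 68.3 in CFIm25-m, and SNORD104, inside SNHG25, had 57.6 and 56.9 in mock control and 61.1, 52.2 and 76 in CFIm25-m. Both had overlapping groups. Of the other tested snoRNA rows, SNORD116-29 had 3.46 and 7.72 in mock control and 14, 11.7 and 9.62 in CFIm25-m, a row that passed the filter only through CFIm25-m, so that its direction is partly set by the filter. The remaining ones in SNHG14 were SNORD116-2, SNORD116-6, SNORD116-7, SNORD116-13, SNORD116-14, SNORD116-18, SNORD116-19 and SNORD116-24, with log2 fold changes between -0.14 and 0.54. SNORA26 in DANCR (-0.33), SNORD12B in ZFAS1 (0.57) and SNORA71B and SNORA71C in SNHG17 (-0.09 and -0.56) had log2 fold changes to either side of 0, and none of them passed the threshold.

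Other listed genes overlapped 16 of the 27 members, 14 of them on the opposite strand and 7 on the same strand, some on both. Of the 26 overlapping rows that were tested, 0 were called in limma-trend, and 0 of the 51 tested rows within 10000 bases. Of all tested genes 1.88% were called, a share at which so few rows can hold none. MCMDC2, which overlaps SNHG6 on the opposite strand, had 11.5 and 22.2 in mock control and 47.1, 32.4 and 42.3 in CFIm25-m, higher in every clone (log2 fold change 1.27, adjusted p = 0.128). RCC1, which overlaps SNHG3 on the same strand, had 2299 and 2343 in mock control and 2567, 2361 and 2058 in CFIm25-m.

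Genes that work with snoRNAs were compared from lists of known members. The 4 core proteins of box C/D particles had a median log2 fold change of -0.06. FBL, the methyltransferase fibrillarin, had 9512 and 9837 in mock control and 9587, 10283 and 7205 in CFIm25-m, and NOP56, a core protein and itself a snoRNA host, had 5509 and 5443 in mock control and 5604, 5651 and 6445 in CFIm25-m. The 4 core proteins of box H/ACA particles had a median of -0.08, with 3596 and 3660.4 in mock control and 3481, 3566 and 3366 in CFIm25-m for DKC1, the pseudouridine synthase dyskerin. None of these 8 genes passed the threshold in either direction. Of all tested genes 1.88% passed it, a share at which lists as short as these can hold none. Of 19 assembly and maturation factors none passed (median -0.07), and of 20 nonsense-mediated decay factors none passed (median -0.06). UPF1, the central helicase of that decay pathway, had 4696 and 4889.9 in mock control and 4523, 4972 and 4583 in CFIm25-m.

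None of 28 protein-coding snoRNA host genes passed the threshold (median -0.09), beside 1.88% of all tested genes. The most abundant, EEF2, had 104780 and 106392 in mock control and 90243, 97932 and 70335 in CFIm25-m (adjusted p = 0.438, limma-trend). HSPA8, a heat shock cognate chaperone, had the smallest unadjusted p of this list. Its values were 42432 and 41192 in mock control and 36240.4, 33796 and 27536 in CFIm25-m (adjusted p = 0.249, limma-trend). By coordinates, 132 other tested genes hold a snoRNA row on their strand, with a median of -0.08 and with 2 called lower and 4 higher, or 4.55% of them beside 1.88% of all tested genes. The lower ones were XACT (log2 fold change -0.86, adjusted p = 0.0064, limma-trend), a long non-coding RNA of the active X chromosome, and USP32 (-0.48, adjusted p = 0.0312), a ubiquitin protease. The higher ones were HTR2C, a serotonin receptor gene (1.08, adjusted p = 0.0207), RPGR (0.84, adjusted p = 0.0103), AMMECR1 (0.57, adjusted p = 0.0175) and NLGN4X (0.41, adjusted p = 0.0438). The snoRNA row inside XACT is listed as RF00012 and those inside NLGN4X and RPGR as RF00322, without a snoRNA symbol. These genes count as hosts by coordinates only, and the share called was not tested against that of all tested genes. Among 80 tested cytosolic ribosomal protein genes none was called, and their medians were -0.02, -0.0056 and -0.34 in replicates 1, 2 and 3. RPL3, the most abundant of them, had 69591 and 70579 in mock control and 64535, 68476 and 50109 in CFIm25-m. The 12 other translation genes of the TOP class had medians of -0.03, -0.04 and -0.25, and EEF1A1, the elongation factor, had 380462 and 378978 in mock control and 409148, 389782 and 282558 in CFIm25-m. None of the 10 regulators of TOP mRNAs was called (median -0.04). LARP1, which binds the cap and TOP tract, had 14852 and 15114 in mock control and 14350.2, 15544 and 14853 in CFIm25-m. The 2 tested hosts with other symbols, LRRC75A-AS1 and C6orf48, were not called. LRRC75A-AS1 had 5958 and 5994 in mock control and 6731, 6024 and 5049 in CFIm25-m. C6orf48 had 2178 and 2188 in mock control and 2424, 1847 and 1719.8 in CFIm25-m, and both were lowest in replicate 3. With the deposited size factors, the ribosomal protein genes and most of these lists therefore lay below the mock controls in replicate 3. The members' median lay above the mock controls. Total-read scaling raised the members' sum in replicate 3 from 63420 to 66382 and was not applied to the list medians. Small medians can thus depend on the scaling.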

How the data were processed

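Poly(A+) RNA was measured in 2 mock control and 3 CFIm25-m samples, grouped and numbered by their labels. The authors deposited 1 table of normalized counts per gene, a signal in which each sample's read counts are scaled by 1 size factor, with coordinates and other columns for each gene (group means, fold changes and p-values of the authors' own comparison, which were not used). The submitters' processing notes name HISAT2, featureCounts from Subread, DESeq2 and hg38, without versions. The annotation release and the strand setting are not given in the sources used here.

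Every value was a whole multiple of 1 step per sample (tolerance 0.01 reads), which gave whole reads for 100% of values. Counting error falls with the number of reads, so genes with few reads are the least certain. Tests were made on log2(normalized count + 1) with the limma package (3.58.1, under R 4.3.3; lmFit, then eBayes with a trend), for 19232 of 33857 genes with at least 10 in at least 2 samples. The Benjamini-Hochberg adjustment was taken over all tested genes, with a threshold of 0.05. Fold changes understate the change of low genes. edgeR 4.0.16 and DESeq2 1.42.0 were run on the recovered reads as alternatives, beside other scalings, pseudocounts and filters, a model without trend, a block on the replicate number and fits with 1 sample left out.

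Limma-trend, edgeR and DESeq2 were tested on simulated data made from these samples. The members and gene lists were chosen with earlier results of these data known. Every tested member was named with its values. Of each related list the genes called were named or, where none was, up to 3 of its most abundant. No gene was named for the assembly and maturation factors. The overlapping genes UBE3A, PWAR5, PWAR6, SNRPN, MCMDC2 and RCC1 were chosen after their values were seen. P-values set the difference between the groups against the spread between samples of the same group, adjusted by the trend over all tested genes. By the study's account these samples are different clones.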

Additional observations from a re-analysis of the deposited data

How the results depend on the processing

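No member was called in any of the alternatives tried except the fit with a replicate block. These were TMM and total-read scaling, pseudocounts of 0.1 and 5, no filter and a filter of 50, limma without its trend, edgeR, DESeq2 and each sample left out. The replicate block called 1 member higher, DANCR (log2 fold change 0.23, adjusted p = 0.0333, limma-trend), where it called 1064 genes lower and 1043 higher in all. It rests on replicate numbers that name different clones. The deviations of same-numbered samples had correlations of 0.0072 and 0.018. With 2 mock controls, whose deviations mirror each other, these values cannot show whether the numbers pair the samples. CFIm25-m replicate 3 has no mock control of its number and so drops out of the difference under the block, where the members' log2 fold changes equal those without that sample (DANCR was not called there, adjusted p = 0.148). The block therefore changes both the pairing and the samples, and the sign turns it shares with that fit come with the loss of replicate 3: SNHG16 at 0.0283, SNHG14 at -0.0041, SNHG6 at 0.0476, SNHG8 at 0.0189, SNHG17 at -0.0751, SNHG1 at -0.0141, SNHG20 at -0.12 and GAS5 at -0.015. SNHG9, not tested without replicate 3, also turned sign, at -0.30. With total-read scaling SNHG6 at 0.000201, SNHG8 at 0.011 and SNHG12 at 0.0408 turned sign, and the log2 ratio of the members' sum moved from 0.029 to 0.099. That scaling called 147 genes lower and 238 higher, or 61.8% higher, against 50.1% of the 361 genes called otherwise. DESeq2 called 278 lower and 331 higher, and limma without its trend 25 and 21. When each sample was left out, the count of all genes ranged from 33 to 524 lower and from 31 to 520 higher, with 524 and 520 without CFIm25-m replicate 3, 90 and 53 without its replicate 1, 117 and 84 without its replicate 2, 35 and 31 without mock control replicate 1 and 33 and 38 without mock control replicate 2, where the lone mock control is assumed to vary like the clones. The members that turned sign in such a fit ranged as follows: EPB41L4A-AS1 -0.0397 to 0.0415, GAS5 -0.015 to 0.0538, SNHG1 -0.0141 to 0.0779, SNHG12 -0.15 to 0.0441, SNHG14 -0.0041 to 0.12, SNHG16 -0.16 to 0.0283, SNHG17 -0.0751 to 0.13, SNHG18 -0.41 to 0.0515, SNHG20 -0.12 to 0.19, SNHG6 -0.15 to 0.0476, SNHG8 -0.13 to 0.0189, SNHG9 -0.84 to 0.67 and ZFAS1 -0.0243 to 0.16. None of these was called, and the cause was not tested. Of 368 member values under alternatives, 339 kept their direction and their side of the threshold. With few reads, as for SNHG9, SNHG21 and SNHG22, differences of 2-fold were not detectable at this depth.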
